A study of Mus musculus with 16 samples.

Results

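The genes described here are 60 named genes of cell division, 29 that act in DNA replication and 31 that act in mitosis. They were chosen by name, and every array probe whose gene symbol in the non-normalized table equalled one of the names was taken. In all, 88 of the 25697 probes matched 53 of the 60 genes. The detection p of a probe is the chance that background alone would give a signal at least as bright. A probe was kept when its detection p was under 0.05 on at least 3 arrays. This left 64 probes for 44 genes, 26 of replication and 18 of mitosis, among 14763 kept probes for 10936 genes. Of the 44 genes, 13 were detected on all 15 arrays used and 42 on at least 1 saline array. The other 2 were Bub1b and Ube2c. With Ccne2, Gmnn, Mcm7 and Kif11, they make 6 genes detected on fewer than 3 saline arrays, which passed the filter only with the help of cardiotoxin arrays, so a higher level with cardiotoxin was favoured by their choice.

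The study measured RNA from whole hamstring muscle of female mice 2 days after surgery on Illumina BeadChip arrays. Its 4 groups combined a surgery with an injection into the muscle. SCI+CDTX mice had a spinal cord injury (SCI) between vertebrae T12 and T13 and cardiotoxin (CDTX), a snake venom toxin that kills muscle fibres. SCI+Saline mice had the same injury and saline, Sham+CDTX mice had sham surgery and cardiotoxin, and Sham+Saline mice had sham surgery and saline. The design text names SCI+CDTX as the group whose muscle goes on to form bone outside the skeleton (neurogenic heterotopic ossification). Each group had 4 arrays. The labels state that array 2 of SCI+CDTX was left out of the authors' final analysis, and it was left out here, so SCI+CDTX has n = 3 and the other groups n = 4. Strain and age are not given in the labels used here, and no uninjected muscle or other day was analysed here. Nothing in the labels says that the arrays of a group come from separate mice, so the p-values measure only the spread between these samples.

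A dividing cell copies its DNA once and then separates the copies. In G1, cyclins D and E with their kinases release E2F factors, which turn on the genes of S phase. The licensing factors Cdc6 and Cdt1 load the Mcm2 to Mcm7 helicase onto replication origins, polymerases copy the strands on the Pcna clamp, and ribonucleotide reductase and thymidylate synthase supply the nucleotides. Later, cyclin B and the kinases Plk1 and Aurka drive entry into mitosis, the spindle checkpoint holds anaphase until chromosomes are attached, and Cdc20 then activates the complex that releases them. Adult muscle fibres do not divide. After a toxin injury, muscle stem cells, fibroblast-like progenitors, endothelial cells and infiltrating blood cells can. In whole muscle, a difference in how many cells of a type are present and a difference in RNA per cell cannot be told apart.

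The promoters of both sets are known for different short sequence elements. E2F factors bind elements such as TTTCCCGC, TTTCGCGC, TTTGCCGC and TTTGGCGC. Many mitosis genes carry a cell cycle homology region (CHR) with the letters TTTGAA and CCAAT boxes near the start. RefSeq promoter windows of 300 bases (250 before the start and 50 from it on, build GRCm38.p6) were matched for 41 of the 53 genes on the array, and both strands were searched. The 4 E2F words were found in 7 of 19 replication genes (36.8%) and in 0 of 22 mitosis genes, against 2.60% of the 27025 genes with a window and 4.38% of the 7967 kept genes matched. TTTGAA was found in 3 of 19 replication genes (15.8%) and 14 of 22 mitosis genes (63.6%), against 20.2% of all genes and 14.9% of kept genes. CCAAT was found in 10 of 19 (52.6%) and 18 of 22 (81.8%), against 41.1% and 43.0%. TTTGAA together with CCAAT was found in 2 of 19 (10.5%) and 14 of 22 (63.6%), against 7.97% and 6.09%. The 150 bases before the start are printed for 2 replication genes and 3 mitosis genes that carry these letters and are described below. Capitals mark the words, read on either strand, that lie whole within these bases. They are E2F words in Mcm5 and Mcm6, and TTTGAA and CCAAT words in Cdc20, Kif22 and Top2a. The windows are chr8:75109359-75109508 (plus strand) for Mcm5, chr1:128359706-128359855 (minus) for Mcm6, chr4:118437344-118437493 (minus) for Cdc20, chr7:127042421-127042570 (minus) for Kif22 and chr11:99024190-99024339 (minus) for Top2a.
Mcm5: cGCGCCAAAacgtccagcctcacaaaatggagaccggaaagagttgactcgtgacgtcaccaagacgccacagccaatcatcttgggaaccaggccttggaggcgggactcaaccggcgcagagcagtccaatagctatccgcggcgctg
Mcm6: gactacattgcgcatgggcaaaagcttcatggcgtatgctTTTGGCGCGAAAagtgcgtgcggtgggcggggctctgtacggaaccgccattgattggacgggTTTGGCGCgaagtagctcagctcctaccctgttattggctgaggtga
Cdc20: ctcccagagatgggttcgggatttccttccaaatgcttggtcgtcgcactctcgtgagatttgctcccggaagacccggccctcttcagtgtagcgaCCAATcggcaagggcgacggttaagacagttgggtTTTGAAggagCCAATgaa
Kif22: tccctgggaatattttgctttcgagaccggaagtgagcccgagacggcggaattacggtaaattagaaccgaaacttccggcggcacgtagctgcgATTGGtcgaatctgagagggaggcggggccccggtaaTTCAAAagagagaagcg
Top2a: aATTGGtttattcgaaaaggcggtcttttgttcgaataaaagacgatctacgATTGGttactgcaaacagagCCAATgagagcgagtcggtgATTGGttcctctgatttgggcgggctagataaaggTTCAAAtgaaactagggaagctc
In Mcm5 the marked E2F word, at -149 from the start, overlaps another on the opposite strand, at -153, which begins before the printed bases. In Mcm6 the first E2F words overlap on opposite strands, at -110 and -106 from the start, and another lies at -47. Within the printed bases the TTTGAA word lies at -18 in Cdc20, -17 in Kif22 and -23 in Top2a. The searched windows hold another TTTGAA word farther from the start, at -215 in Kif22 and -179 in Top2a. A match of letters is a description of the window and shows no binding.

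Intensities are given on the log2 scale after background correction and quantile normalization, so a difference of 1 is a doubling. Values between 4 and 5 lie close to the floor set by the offset of 16 added to every intensity. The arrays detected between 11114 and 13694 probes, with on average 33.3 to 38.9 beads per probe. All SCI arrays were on 1 slide and all sham arrays on the other, so surgery and slide cannot be told apart, whereas both cardiotoxin contrasts lie within a slide. The saline arrays numbered 4 stood apart in both surgeries. On them the summed intensity of 5 neutrophil markers was 12066 (SCI+Saline) and 10325 (Sham+Saline), and all 6 kept markers of neutrophil precursors were detected, against at most 2 on the other saline arrays. The 4 Sham+CDTX arrays stood apart in the differences between probes of the same gene. A score of those differences, the first component over 2784 genes that are not members, was 0.344 to 0.389 on them, 0.284 on the left-out SCI+CDTX array and between -0.262 and -0.070 on all other arrays. The left-out array had a median over the replication genes of 0.95 and over the mitosis genes of 1.12 above the Sham+Saline mean, below the other SCI+CDTX arrays (1.30 to 1.80 and 1.73 to 2.40). Markers of muscle fibres were detected, 10 of 10, on all 15 arrays.

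Cardiotoxin raised most of the cell cycle genes at 2 days, after either surgery. In SCI mice 36 of the 44 genes were higher in SCI+CDTX than in SCI+Saline and 0 were lower, where 44.4% of all genes were called in either direction, 22.1% higher and 22.3% lower. In sham mice 40 of 44 were higher and 0 lower, where 50.7% of all genes were called, 23.9% higher and 26.8% lower. A gene was called when its limma p, adjusted by Benjamini-Hochberg over all kept probes, was under 0.05. At an unadjusted limma p under 0.05, the counts were 38 higher after SCI and 40 higher after sham surgery, with 0 lower in each. Of the 6 genes that passed only with the help of cardiotoxin arrays, 2 (Bub1b and Kif11) are among those higher after SCI and 3 (with Ccne2) among those higher after sham surgery. The median log2 difference over the 44 genes was 1.72 in SCI mice and 1.68 in sham mice, against -0.04 and -0.05 over all genes. Without background correction these medians were 0.84 and 0.79, against -0.01 and -0.02. By at least 1 log2 unit, 31 genes were higher in SCI mice (9.53% of all genes) and 34 in sham mice (10.1%). The 36 genes higher in SCI mice were also higher in sham mice, and 4 more were called in sham mice alone. Of the 13 members detected on every array, 12 were higher in SCI mice and 13 in sham mice. Without the saline arrays numbered 4, a comparison added after seeing the data, 38 and 40 genes were higher and 0 lower, with medians of 1.96 and 1.79. There 47.9% and 52.0% of all genes were called in either direction.

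Both phases took part. Among the 26 replication genes 19 were higher with cardiotoxin in SCI mice and 23 in sham mice, with median log2 differences of 1.38 and 1.66. Among the 18 mitosis genes 17 were higher in each, with medians of 1.91 and 1.73. On single arrays the median over the replication genes, relative to the Sham+Saline mean, was 1.30, 1.80 and 1.45 on SCI+CDTX arrays 1, 3 and 4 and 1.61, 1.54, 1.91 and 1.63 on Sham+CDTX arrays 1 to 4. It was -0.16, 0.06, -0.05 and 0.57 on the SCI+Saline arrays and -0.08, -0.16, -0.16 and 0.34 on the Sham+Saline arrays. The corresponding mitosis medians were 1.73 to 2.40, 1.48 to 1.9, -0.57 to 0.83 and -0.39 to 0.80. Every cardiotoxin array lay above every saline array in both phases, and array 4 was the highest of each saline group. For single genes the cardiotoxin and saline arrays did not overlap, with cardiotoxin higher, in 37 of 44 genes after SCI (24.0% of all genes) and 38 after sham surgery (22.3%).

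**Figure D1:**
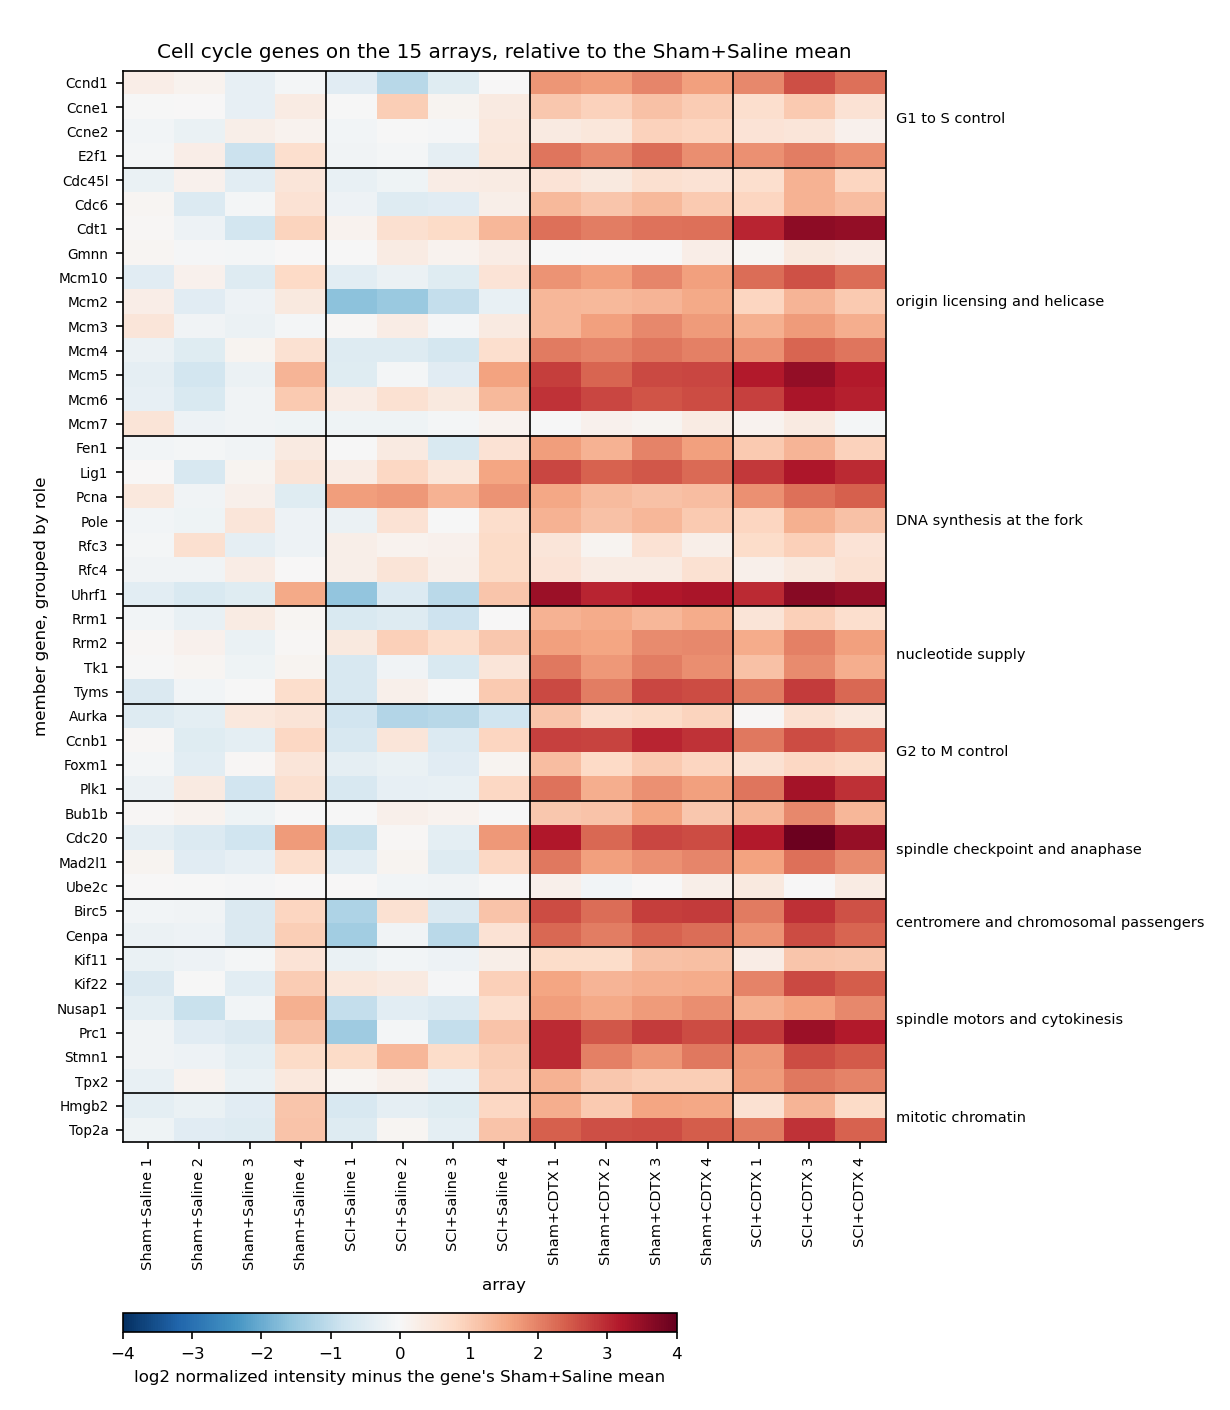
Each row is 1 of the 44 cell cycle genes and each column 1 of the 15 arrays, and the colour gives the log2 normalized intensity minus the gene's Sham+Saline mean (blue below, red above, scale from -4 to 4). Rows are grouped by role, the 7 cardiotoxin columns on the right are red in nearly all rows, and the saline arrays numbered 4 are redder than the other saline arrays.

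In the G1 to S role, all 4 kept genes were higher with cardiotoxin in sham mice and 2 in SCI mice. Ccnd1, cyclin D1, which starts the passage through G1, had the largest difference. Its log2 intensity was 10.24, 10.90 and 10.50 on the SCI+CDTX arrays and 10.08, 9.99, 10.27 and 9.94 on the Sham+CDTX arrays. It was 7.86, 7.19, 7.81 and 8.33 on the SCI+Saline arrays and 8.57, 8.45, 7.99 and 8.23 on the Sham+Saline arrays. All cardiotoxin arrays were above all saline arrays. The log2 difference was 2.75 (SE 0.22, adjusted p = 2.71e-07) after SCI and 1.76 (SE 0.20, adjusted p = 1.12e-06) after sham surgery. E2f1, the transcription factor of S phase genes, rose by similar amounts, 1.94 (adjusted p = 1.33e-05) and 2.05 (adjusted p = 1.41e-06). The E cyclins, which pair with Cdk2 at the start of S phase, rose in sham mice. Ccne1 rose by 1.05 there (adjusted p = 0.000193) and differed by 0.42 in SCI mice (adjusted p = 0.118). Ccne2 was detected on no Sham+Saline array and was at least 1.25-fold higher in Sham+CDTX (adjusted p = 0.00377), and the difference was 0.33 in SCI mice (adjusted p = 0.168).

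Among the 11 kept genes of origin licensing and the helicase, 9 were higher with cardiotoxin after each surgery, with median log2 differences of 2.20 in SCI and 1.65 in sham mice. Mcm5, a helicase subunit on chromosome 8, led the role. Its log2 intensity was 9.30, 9.63 and 9.29 on the SCI+CDTX arrays, 8.88, 8.44, 8.78 and 8.80 on the Sham+CDTX arrays, 5.64, 6.04, 5.66 and 7.72 on the SCI+Saline arrays and 5.75, 5.38, 5.88 and 7.48 on the Sham+Saline arrays. The cardiotoxin arrays did not overlap the saline arrays, and array 4 was the highest of both saline groups by over 1 unit. The difference was 3.14 (SE 0.44, adjusted p = 1.86e-05), or 8.82-fold, in SCI mice and 2.60 (SE 0.40, adjusted p = 3.09e-05), or 6.07-fold, in sham mice. Cdt1, which loads the helicase with Cdc6, was 8.41, 8.93 and 8.88 on the SCI+CDTX arrays, 7.57, 7.40, 7.53 and 7.56 on the Sham+CDTX arrays, 5.51, 6.02, 6.14 and 6.68 on the SCI+Saline arrays and 5.40, 5.15, 4.64 and 6.26 on the Sham+Saline arrays. It rose by 2.66 (adjusted p = 1.95e-06) and 2.15 (adjusted p = 2.64e-06). The other helicase subunits differed in size. Mcm6 rose by 2.40 in SCI and 2.67 in sham mice (adjusted p = 6.51e-06 and 3.08e-07), Mcm4 by 2.35 and 2.05, Mcm2 by 2.20 and 1.38 and Mcm3 by 1.36 and 1.65. Mcm10, which helps start the fork, rose by 2.48 and 1.76, Cdc6 by 1.40 and 1.19, and Cdc45l, the helicase partner now called Cdc45, by 0.92 and 0.54 (adjusted p = 0.00225 and 0.0339). Mcm7 differed by 0.21 and 0.15 and Gmnn, which blocks Cdt1, by 0.07 and 0.07, without a call. These probes were detected on 7 and 4 of the 15 arrays.

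At the replication fork 4 of 7 kept genes were higher with cardiotoxin in SCI mice and 6 in sham mice. Uhrf1, which keeps DNA methylation on newly copied strands, had the largest difference of all members in both contrasts. Its log2 intensity was 9.27, 9.94 and 9.83 on the SCI+CDTX arrays, 9.73, 9.33, 9.49 and 9.56 on the Sham+CDTX arrays, 4.73, 5.74, 5.23 and 7.40 on the SCI+Saline arrays and 5.88, 5.68, 5.81 and 7.82 on the Sham+Saline arrays. The cardiotoxin arrays lay close together, and the saline arrays numbered 4 stood between them and the other saline arrays. Uhrf1 rose by 3.90 (SE 0.50, adjusted p = 8.41e-06), or 14.9-fold, in SCI mice and by 3.23 (SE 0.46, adjusted p = 1.20e-05), or 9.38-fold, in sham mice. Lig1, the ligase that joins Okazaki fragments, rose by 2.23 and 2.44, Fen1, the nuclease that trims them, by 1.02 and 1.68, and Pole, the leading strand polymerase, by 0.89 and 1.23. Pcna, the sliding clamp, rose by 1.31 (SE 0.18, adjusted p = 9.73e-06) in sham mice and differed by 0.49 (SE 0.20, adjusted p = 0.0540) in SCI mice. The clamp loader subunit Rfc4 rose by 0.45 in sham mice (adjusted p = 0.0190) and differed by -0.03 in SCI mice, and Rfc3 differed by 0.41 and 0.35 without a call.

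All 4 kept genes of nucleotide supply rose with cardiotoxin after both surgeries. Tyms, thymidylate synthase, was 7.20, 7.93 and 7.42 on the SCI+CDTX arrays, 7.75, 7.18, 7.80 and 7.72 on the Sham+CDTX arrays, 4.5, 5.32, 5.10 and 6.18 on the SCI+Saline arrays and 4.55, 5.01, 5.10 and 5.83 on the Sham+Saline arrays. The injections did not overlap. Tyms rose by 2.24 (SE 0.32, adjusted p = 2.26e-05) and 2.49 (SE 0.29, adjusted p = 1.45e-06). Tk1, which salvages thymidine, rose by 1.73 and 1.93, and Rrm1, the large subunit of ribonucleotide reductase, by 1.21 and 1.42. Rrm2, the small subunit, rose by 0.93 in SCI mice (adjusted p = 0.000365). In sham mice it was detected on no Sham+Saline array (mean 4.43) and on all Sham+CDTX arrays (mean 6.19), at least 2.68-fold higher (adjusted p = 1.00e-07).

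The 4 kept genes of G2 to M control rose after both surgeries. Plk1, the kinase of mitotic entry, was 7.21, 8.37 and 7.99 on the SCI+CDTX arrays, 7.23, 6.51, 6.90 and 6.69 on the Sham+CDTX arrays, 4.41, 4.73, 4.76 and 5.87 on the SCI+Saline arrays and 4.84, 5.40, 4.30 and 5.69 on the Sham+Saline arrays. It rose by 2.91 (SE 0.34, adjusted p = 3.93e-06) in SCI mice and by 1.77 (adjusted p = 0.000137) in sham mice. Ccnb1, cyclin B1, rose by 2.36 (SE 0.33) and 2.84 (SE 0.30, adjusted p = 4.15e-07), the latter 7.18-fold. Aurka, a kinase of spindle assembly, rose by 1.32 and 0.86, and Foxm1, a transcription factor of mitosis genes, by 0.96 and 0.97. Of the spindle checkpoint and anaphase genes 3 of 4 rose. Cdc20, the activator of the anaphase-promoting complex, was 8.23, 8.95 and 8.52 on the SCI+CDTX arrays, 8.23, 7.34, 7.70 and 7.65 on the Sham+CDTX arrays, 4.16, 5.10, 4.64 and 6.77 on the SCI+Saline arrays and 4.69, 4.48, 4.24 and 6.74 on the Sham+Saline arrays. Its saline values were at or below 5.10, near the floor, on all arrays but those numbered 4. Cdc20 rose by 3.40 (SE 0.53, adjusted p = 5.56e-05) and 2.69 (SE 0.49, adjusted p = 0.000158). The checkpoint kinase Bub1b was detected on no saline array and was at least 2.38-fold higher in SCI mice and 1.81-fold in sham mice (adjusted p = 3.78e-06 and 4.07e-06). Mad2l1, the checkpoint protein Mad2, rose by 1.89 and 1.88, and Ube2c, a ubiquitin-conjugating enzyme of anaphase, differed by 0.31 and 0.09 and was detected on 4 of 15 arrays.

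At the centromere both kept genes rose. Cenpa, the histone H3 variant of centromeres, was 9.89, 10.69 and 10.42 on the SCI+CDTX arrays, 10.39, 10.14, 10.46 and 10.32 on the Sham+CDTX arrays, 6.69, 7.94, 7.0 and 8.67 on the SCI+Saline arrays and 7.86, 7.90, 7.5 and 9.08 on the Sham+Saline arrays. Cenpa was detected on every array, and the injections did not overlap. It rose by 2.76 (SE 0.38, adjusted p = 1.73e-05) and 2.24 (SE 0.35, adjusted p = 3.58e-05), and Birc5, survivin, a chromosomal passenger, by 2.54 and 2.60. All 6 spindle and cytokinesis genes rose. Prc1, which bundles the microtubules of the dividing cell's midzone, was 8.97, 9.58 and 9.32 on the SCI+CDTX arrays, 9.15, 8.64, 8.97 and 8.77 on the Sham+CDTX arrays, 4.75, 6.08, 5.22 and 7.30 on the SCI+Saline arrays and 6.01, 5.71, 5.59 and 7.33 on the Sham+Saline arrays. It rose by 3.45 (SE 0.45, adjusted p = 9.93e-06), or 10.9-fold, and 2.72 (SE 0.42, adjusted p = 2.51e-05), or 6.60-fold. The spindle proteins Nusap1 and Tpx2 rose by 1.96 and 1.69 and by 1.70 and 1.11, and the motors Kif22 and Kif11 by 1.92 and 1.47 and by 0.91 and 0.95. Stmn1, stathmin, which takes microtubules apart, rose by 1.33 and 2.22. In mitotic chromatin, Top2a, the topoisomerase that untangles sister chromatids, was 6.92, 7.72 and 7.18 on the SCI+CDTX arrays, 7.23, 7.41, 7.44 and 7.27 on the Sham+CDTX arrays, 4.33, 4.90, 4.43 and 5.98 on the SCI+Saline arrays and 4.67, 4.37, 4.31 and 5.98 on the Sham+Saline arrays. It rose by 2.36 (SE 0.37, adjusted p = 5.57e-05) and 2.50 (SE 0.34, adjusted p = 7.13e-06), and Hmgb2, a chromatin protein, by 1.07 and 1.41.

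**Figure D2:**
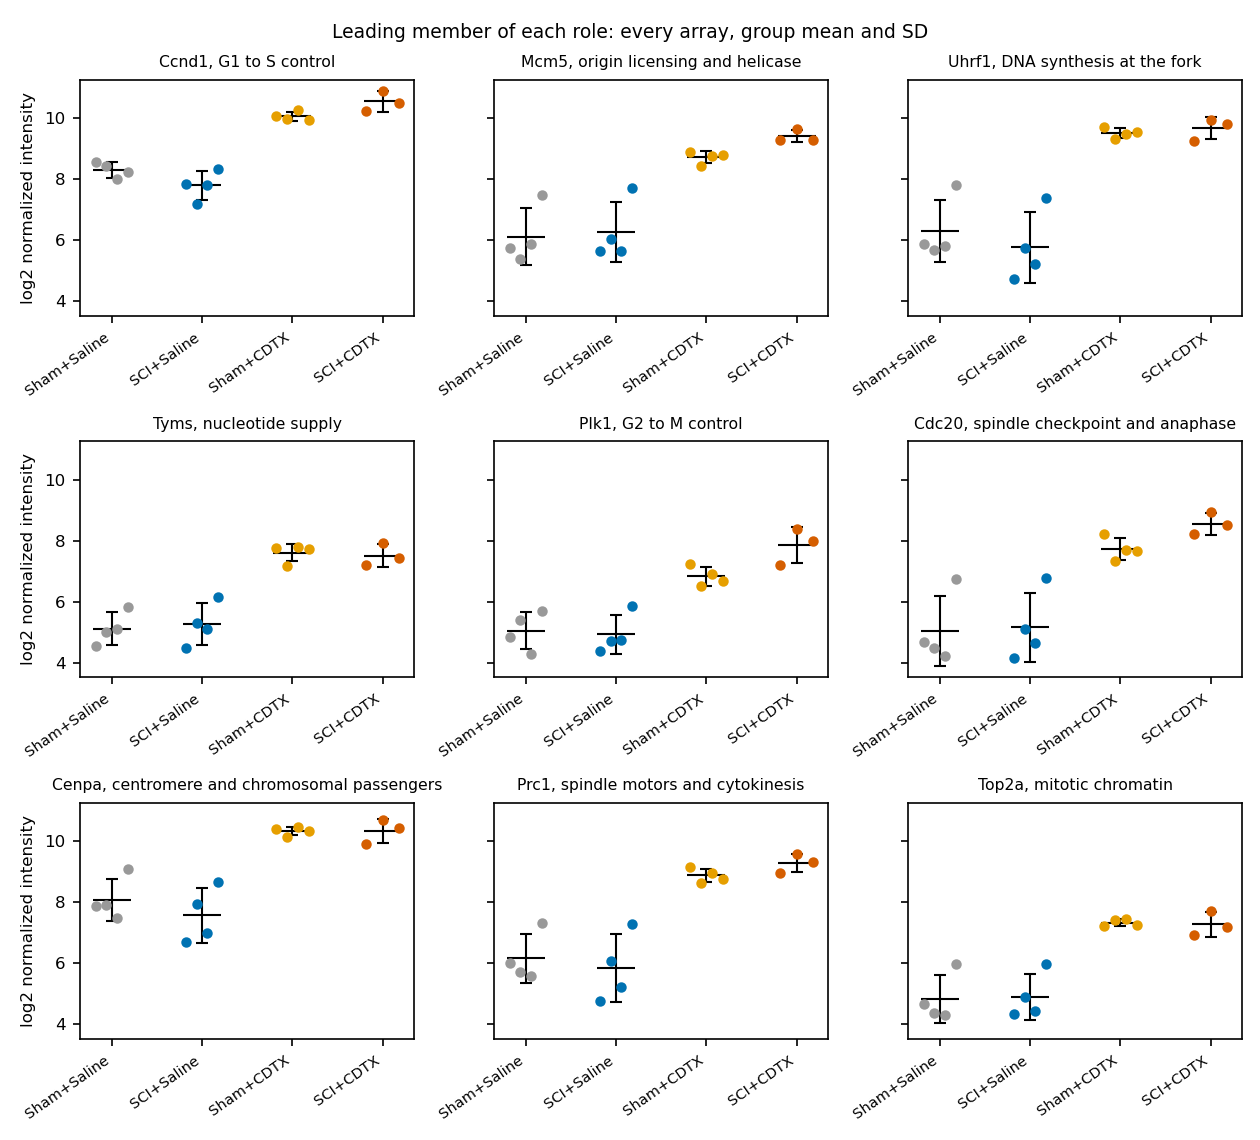
Log2 normalized intensity (vertical axis) of the gene with the largest difference in each of the 9 roles, with 1 point per array, a horizontal line at the group mean and bars of 1 SD, for Sham+Saline, SCI+Saline and Sham+CDTX (n = 4 each) and SCI+CDTX (n = 3). In every panel the cardiotoxin points lie above the saline points, and in all panels but that of Ccnd1 the highest saline points are the arrays numbered 4.

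The order of the 4 groups showed the same split. In 41 of the 44 genes both cardiotoxin means were above both saline means. The highest mean was that of SCI+CDTX in 22 genes and of Sham+CDTX in 22, and the lowest that of SCI+Saline in 20 and of Sham+Saline in 24. Pcna and Gmnn had the order SCI+CDTX, SCI+Saline, Sham+CDTX, Sham+Saline. Between SCI+CDTX and Sham+CDTX, neighbours at the top of most orders, 38 genes showed no call.

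**Figure D3:**
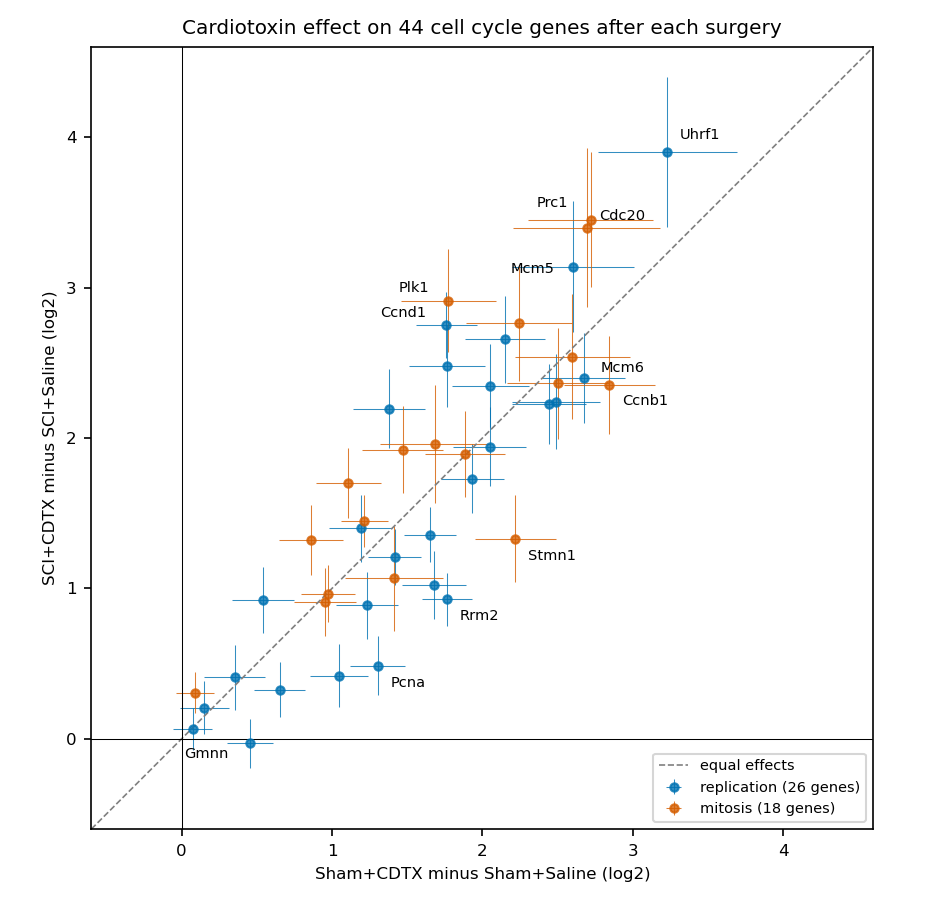
Log2 difference with cardiotoxin in sham mice (horizontal axis) against that in SCI mice (vertical axis) for 26 replication genes (blue) and 18 mitosis genes (orange), with bars of 1 SE and a dashed line where both are equal. Uhrf1 lies highest on both axes (3.23 and 3.90), Plk1 and Ccnd1 lie above the line and Pcna, Rrm2 and Stmn1 below it.

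Whether SCI changed these genes in cardiotoxin-injected muscle is asked by SCI+CDTX against Sham+CDTX. Most did not pass the test: 5 of 44 genes were higher and 1 lower, below the 32.4% of all genes called (16.6% higher and 15.8% lower), and the median log2 difference was 0.00, against 0.01 over all genes. Cdt1, the licensing factor whose arrays are given above, was 1.23 higher in SCI+CDTX (SE 0.29, adjusted p = 0.00331), or 2.34-fold, and its SCI+CDTX arrays lay above all Sham+CDTX arrays. Plk1 was 1.02 higher (SE 0.34, adjusted p = 0.0301), but the SCI+CDTX array at 7.21 fell below the highest Sham+CDTX array at 7.23. Kif22, a kinesin that moves chromosome arms, was 7.99, 8.64 and 8.43 on the SCI+CDTX arrays and 7.57, 7.36, 7.44 and 7.47 on the Sham+CDTX arrays. It was 0.89 higher (SE 0.29, adjusted p = 0.0266). Pcna was 0.84 higher (SE 0.20, adjusted p = 0.00338) and Tpx2, which builds the spindle, 0.82 higher (SE 0.23, adjusted p = 0.0119). Rrm1 was the gene that fell. It was 7.71, 8.15 and 7.89 on the SCI+CDTX arrays and 8.59, 8.70, 8.51 and 8.67 on the Sham+CDTX arrays, without overlap, a difference of -0.70 (SE 0.19, adjusted p = 0.00825). Mcm5 (0.68, adjusted p = 0.275), Cdc20 (0.83, adjusted p = 0.269) and Uhrf1 (0.15, adjusted p = 0.869) showed no call. Groups did not overlap, with SCI+CDTX higher, in 8 genes (23.7% of all genes) and, with it lower, in 4 (21.5%).

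These counts changed with single arrays and with the scaling. The higher count was 2 without SCI+CDTX array 3 and 3 without SCI+CDTX array 4 or Sham+CDTX array 2, and the lower count was 2 without SCI+Saline array 3 or 4. With each slide normalized separately 10 genes were higher and 0 lower, where 34.5% of all genes were called in either direction. With the score of probe differences as a covariate, over all 16 arrays, 0 of the members and 2.09% of all genes were called by limma (at an unadjusted p under 0.05, 1 member was higher and 4 lower), and the sign turned for Cdt1 (-0.18), Plk1 (-1.19) and Kif22 (-0.57). Without the saline arrays numbered 4 the counts were 9 and 3, where 35.1% of all genes were called in either direction. Several marker sums did not overlap between SCI+CDTX and Sham+CDTX. Those of lymph node vessels were 1443 to 1776 and 73.0 to 133, of B cells 173 to 243 and 9.74 to 23.4, and of T cells 102 to 162 and 32.9 to 53.0, with 5 of 5 T cell markers called higher. Those of neutrophils were 2935 to 4980 and 546 to 844 and of neutrophil precursors 1224 to 1873 and 313 to 476, with no marker of either list called. The neutrophil sum in SCI+CDTX was led by S100a8 (10.97 to 11.69, against 6.87 to 8.71 in Sham+CDTX). S100a9 and Mmp9 were also higher without overlap, whereas Retnlg and Csf3r overlapped. The precursor sum was led by Chi3l3 (10.22 to 10.86 and 8.28 to 8.87). The other precursor markers were at or below 5.31 on the arrays of both groups. The marker sums of fibroadipogenic progenitors, the fibroblast-like cells of muscle, were lower in SCI+CDTX, 11865 to 14941 and 19927 to 23334, with 2 of 7 markers called lower and 1 higher. The part of these cells in the 6 calls was not tested.

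In saline-injected muscle, 6 genes were higher after SCI and 3 lower, where 30.7% of all genes were called (14.8% higher and 15.9% lower). The median over the 44 genes was 0.04, against -0.02 over all genes. Pcna had the largest difference. Its log2 intensity was 6.59, 6.68, 6.33 and 6.74 on the SCI+Saline arrays and 5.36, 4.78, 5.13 and 4.46 on the Sham+Saline arrays, and 6.75, 7.15 and 7.32 on the SCI+CDTX arrays and 6.49, 6.18, 6.09 and 6.18 on the Sham+CDTX arrays. The SCI+Saline arrays lay wholly above the Sham+Saline arrays, and this difference was 1.65 (SE 0.18, adjusted p = 2.03e-06), or 3.15-fold. Pcna was detected on 2 of the 4 Sham+Saline arrays. Stmn1 was 0.94 higher after SCI (SE 0.27, adjusted p = 0.0121) and Lig1 0.79 higher (SE 0.25, adjusted p = 0.0213). Rrm2 was 4.83, 5.37, 5.13 and 5.50 on the SCI+Saline arrays and 4.48, 4.59, 4.17 and 4.47, all undetected, on the Sham+Saline arrays, at least 1.36-fold higher (adjusted p = 0.00134). Cdt1 was 0.73 higher (SE 0.27, adjusted p = 0.0484) and Rfc4 0.43 higher (SE 0.15, adjusted p = 0.0405). With Cdt1 and Pcna, 2 genes were higher after SCI with either injection.

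The genes that fell after SCI in saline-injected muscle were Mcm2, Aurka and Rrm1. Mcm2 was 4.39, 4.56, 5.08 and 5.74 on the SCI+Saline arrays, 2 of them detected, and 6.32, 5.58, 5.83 and 6.43 on the Sham+Saline arrays, a difference of -1.10 (SE 0.24, adjusted p = 0.00191). Aurka was 5.66, 5.26, 5.34 and 5.65 against 5.91, 6.04, 6.86 and 6.94, without overlap, a difference of -0.96 (SE 0.21, adjusted p = 0.00209). Rrm1 was 6.58, 6.68, 6.36 and 7.20 against 7.10, 6.89, 7.52 and 7.29, a difference of -0.49 (SE 0.17, adjusted p = 0.0388). Groups did not overlap in 2 genes with SCI+Saline higher (11.5% of all genes) and in 1 with it lower (13.0%). The higher count was 3 without SCI+Saline array 2 or 4, and the lower count was 7 without SCI+Saline array 4. Of all genes, 25.9% were called in either direction without SCI+Saline array 2 and 32.0% without SCI+Saline array 4. The 4 kept markers of muscle precursors were Myod1, Myog, Chrna1 and Itga7, and the listed markers Pax7 and Myf5 had no kept probe. The kept markers summed to 2953 to 3907 in SCI+Saline, 571 to 777 in Sham+Saline, 2532 to 2743 in SCI+CDTX and 1605 to 2343 in Sham+CDTX. In SCI+Saline the brightest of them were Chrna1 (10.66 to 11.17) and Myog (9.39 to 9.95), so the sum does not show how many precursors were dividing. Markers of endothelium summed to 581 to 658 in SCI+Saline and 992 to 1157 in Sham+Saline, with 5 of 6 called lower after SCI. Neutrophil markers summed to 1895 to 3713 on SCI+Saline arrays 1 to 3 and to 69.3 to 114 on Sham+Saline arrays 1 to 3, with 1 of 5 called higher. The SCI+Saline sums were led by S100a8, at 10.86 to 11.81 on these SCI+Saline arrays and 4.42 to 5.7 on these Sham+Saline arrays. S100a9 was also higher there (5.45 to 6.68 against 4.21 to 4.46). Mmp9 was lower (at most 5.72 against at least 5.74), and Retnlg and Csf3r overlapped. The sum therefore does not show a rise of the whole list. Of the 4 muscle precursor markers 3 were called higher. The part of these cells in the differences was not tested.

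**Figure D4:**
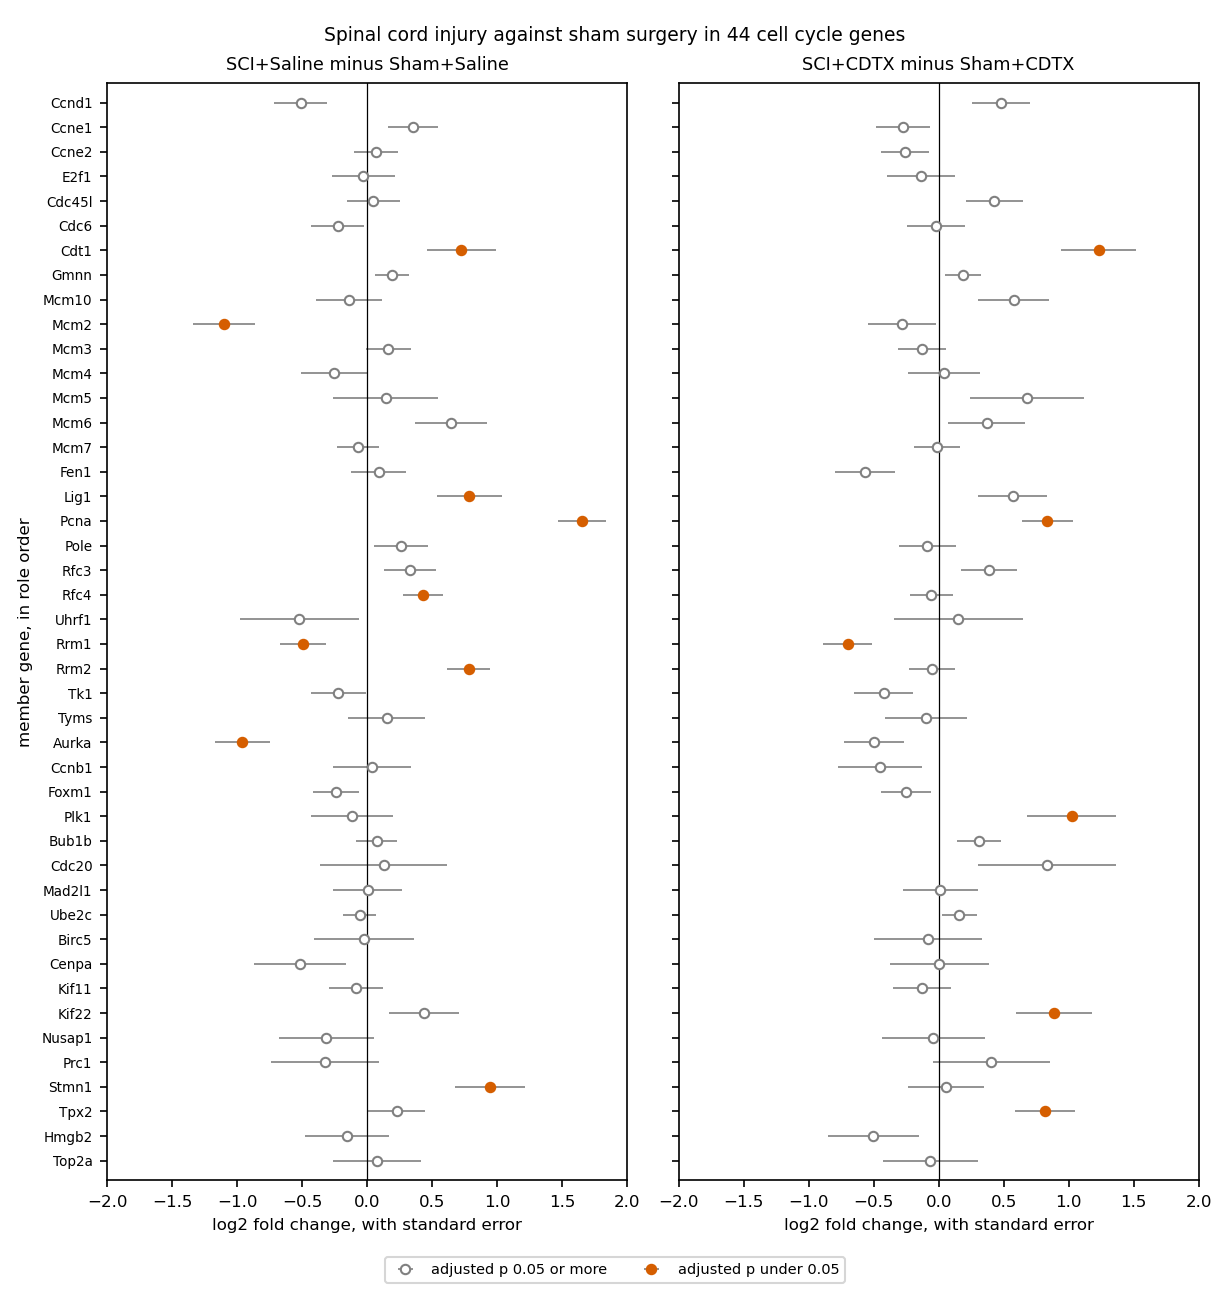
Log2 difference of SCI over sham surgery, with 1 SE, for the 44 genes in saline-injected muscle (left) and cardiotoxin-injected muscle (right), with filled points at an adjusted p under 0.05. Pcna and Cdt1 are filled on the right of 0 in both panels, and Rrm1 is filled on the left of 0 in both.

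Whether the cardiotoxin response itself differed between surgeries was tested as an interaction, the difference in SCI mice minus that in sham mice. It was called in 3 of 44 genes, 1 higher and 2 lower, where 25.8% of all genes were called (14.0% higher and 11.8% lower). The response of Ccnd1 was larger in SCI mice by 0.99 (SE 0.30, adjusted p = 0.0214). Those of Pcna and Rrm2 were smaller in SCI mice, by differences of -0.82 (SE 0.27, adjusted p = 0.0328) and -0.84 (SE 0.24, adjusted p = 0.0165), and the Rrm2 value rests on a Sham+Saline group in which it was not detected. Plk1 had an interaction of 1.14 that missed the threshold (adjusted p = 0.0857). The higher count was 2 without SCI+CDTX array 1 or Sham+Saline array 3, 0 without SCI+CDTX array 3 and 5 without SCI+Saline array 4. Without SCI+Saline array 4, 28.4% of all genes were called in either direction. The lower count was 0 without SCI+CDTX array 1 or SCI+Saline array 2 and 1 without SCI+CDTX array 3, SCI+Saline array 4, Sham+CDTX array 1 or Sham+Saline array 2. Under median scaling, which moved the median of all genes to 0.25 for cardiotoxin in sham mice, 0.14 for SCI with saline and -0.21 for the interaction, 0 genes were higher and 5 lower. There 32.2% of all genes were called in either direction. With the score of probe differences as a covariate the Ccnd1 interaction was -0.99.

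The marker lists moved in different ways with cardiotoxin. The summed intensity of the monocyte and macrophage markers was 31958 to 38897 in SCI+CDTX and 34586 to 38328 in Sham+CDTX, against 3655 to 12503 in SCI+Saline and 4627 to 9021 in Sham+Saline, where array 4 was the highest of each saline group. Of its 11 markers 11 were called higher with cardiotoxin in SCI mice and 10 in sham mice. Of 7 fibroadipogenic progenitor markers 5 and 6 were called higher, with sums of 11865 to 14941 in SCI+CDTX, 7988 to 13018 in SCI+Saline, 19927 to 23334 in Sham+CDTX and 7369 to 15599 in Sham+Saline. Of 4 muscle precursor markers 4 were called higher in sham mice, and 1 higher and 1 lower in SCI mice. Their sums in SCI+CDTX (2532 to 2743) lay below those in SCI+Saline (2953 to 3907). Of 5 T cell markers 5, and of 2 B cell markers 2, were called higher in SCI mice, and 0 of either in sham mice. Of 6 endothelium markers 1 was called higher in SCI mice and 3 were called lower in sham mice. SCI+Saline array 4 was the highest of its group in 38 of the 44 members and Sham+Saline array 4 in 32. Neutrophil precursor markers summed to 2098 and 2293 on these arrays and to 19.4 to 412 on the other saline arrays. On the cardiotoxin arrays the sums were 1224 to 1873 (SCI+CDTX) and 313 to 476 (Sham+CDTX), led by Chi3l3 at 10.22 to 10.86 and 8.28 to 8.87, the 1 of 6 markers called higher with cardiotoxin after both surgeries (3.32 and 3.04). The granule genes Prtn3 and Ctsg were at 7.5 and 7.71 on SCI+Saline array 4 and 6.86 and 6.59 on Sham+Saline array 4, against 4.33 to 5.13 and 4.2 to 4.6 on the cardiotoxin arrays. Red cell precursor markers summed to 15651 and 16597 on the saline arrays numbered 4 and to 4829 to 8191 on the other saline arrays. The sums were led by the globin Hba-a1, at 13.79 and 13.90 on the arrays numbered 4 and 12.14 to 12.86 on the others. Klf1 (5.69 and 5.81, against 4.40 to 5.40) and Alas2 (6.44 and 7.78, against 5.11 to 5.75) were much dimmer, and Hbb-b2 overlapped. The medians of the cardiotoxin responses were larger without the saline arrays numbered 4, as given above. The part of these cell types in the cardiotoxin response was not tested.

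**Figure D5:**
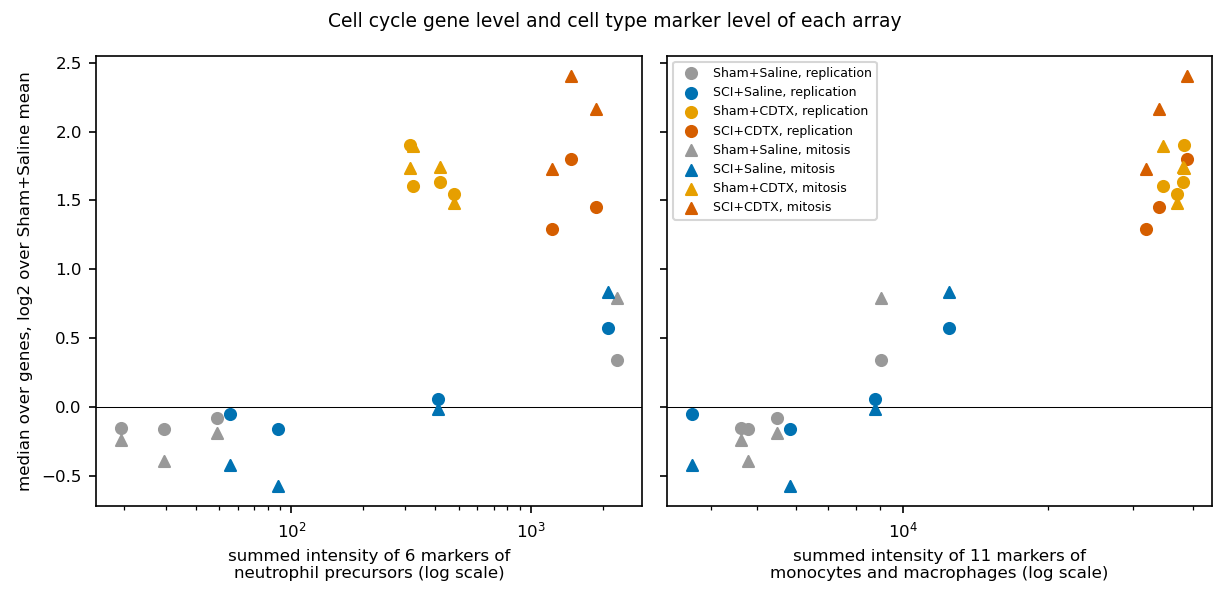
Median log2 intensity over the 26 replication genes (circles) and 18 mitosis genes (triangles), relative to the Sham+Saline mean, against the summed intensity of 6 neutrophil precursor markers (left) and 11 monocyte and macrophage markers (right) on log axes, with 1 point per array and phase. The saline arrays numbered 4 lie at the right end of the left panel, at 2098 and 2293, and below all cardiotoxin arrays in height.

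Among the genes on the array whose levels were most like those of Mcm5 were Nckap1l, Pscdbp, Plcg2 and Myo1f. Over the 15 arrays, Pearson's r with Mcm5 was between 0.985 and 0.988 for these 4 genes. After each group's mean was taken away it was 0.918 to 0.940. The points share the slides, and the saline arrays numbered 4 are high in both, so these values describe the arrays and carry no test.

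Of the 44 genes, 12 had more than 1 kept probe. Their probes had the same call in 11 genes for cardiotoxin in SCI mice, 8 in sham mice, 11 for SCI+CDTX against Sham+CDTX, and 9 each for SCI+Saline against Sham+Saline and the interaction. Mcm6 had 4 kept probes, all higher with cardiotoxin in SCI mice (0.41 to 2.40). One of them, with means of 7.58 in SCI+CDTX and 8.82 in Sham+CDTX, was -1.24 between these groups (adjusted p = 0.00552) with an interaction of -1.90 (adjusted p = 0.00324), whereas the others showed no call there. Another Mcm6 probe differed by 0.26 in sham mice without a call. Lig1 had 4 kept probes. The brightest gave the values above, and the others lay between 0.03 and 0.58 in SCI mice and between -0.11 and 0.37 in sham mice, and none was called for SCI with saline. The second Tk1 probe, which overlaps the first on the transcript, rose by 0.49 in SCI mice and differed by 0.34 in sham mice (adjusted p = 0.0874). The second Rfc4 probe showed no call. For Ccnd1 the interaction was called by 2 overlapping probes (0.99 and 0.87) and was -0.05 by the third (adjusted p = 0.922). For Rrm2 the second probe was not called in SCI+Saline against Sham+Saline (0.38, adjusted p = 0.212) or in the interaction (-0.34, adjusted p = 0.484). Ccnb1, Cdc20, Birc5, Mcm10, Tyms and Foxm1 had probes with the same call in all 5 contrasts.

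No probe carried the symbols Cdk4, Gins1, Cdk1, Aurkb, Kif20a, Racgap1 or Mki67, which are not analysed here. Prim1, Chek1 and Ttk were detected on at most 2 arrays by any probe, Ccna2 on 1, and Ccnb2, Cks2, Bub1, Cenpe and Ect2 on none, so these 9 genes were left out by the filter. The mitotic kinase Cdk1 is on the array under its older symbol Cdc2a. Its kept probe, outside the rule, had a mean ± SD of 7.34 ± 0.46 for SCI+CDTX (n = 3), 8.23 ± 0.30 for Sham+CDTX, 5.16 ± 0.66 for SCI+Saline and 4.61 ± 0.60 for Sham+Saline (n = 4 for these groups). Cdc2a rose with cardiotoxin by 2.18 in SCI mice (SE 0.33, adjusted p = 4.26e-05) and 3.62 in sham mice (SE 0.31, adjusted p = 3.49e-08), with an interaction of -1.44 (adjusted p = 0.0252). It was lower in SCI+CDTX than in Sham+CDTX by a difference of -0.89 (adjusted p = 0.0490).

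A wider list of 108 other cell cycle genes, 82 of them kept, was also mostly higher with cardiotoxin. In SCI mice 57 were higher (69.5%) and 4 lower (4.88%), where 22.1% and 22.3% of all genes were, with a median of 0.75. In sham mice 55 were higher (67.1%) and 3 lower (3.66%), where 23.9% and 26.8% of all genes were, with a median of 0.95. Anln, anillin, of the cleavage furrow, rose by 3.24 (SE 0.25, adjusted p = 2.59e-07) and 2.66, and Pbk, a mitotic kinase, by 2.71 and 3.05, with Cdca3 at 2.64 in SCI and Cdca7 at 2.72 in sham mice. The lowest were Ccnd2 (-1.30), Pttg1 (-0.64) and Pola2 (-0.56) in SCI mice and Pola2 (-1.03), Rpa2 (-0.62) and Pttg1 (-0.42) in sham mice. In the other 3 contrasts the shares called were below those of all genes in both directions. Between SCI+CDTX and Sham+CDTX 7 were higher (8.54%, 16.6% of all genes), led by Pold1 (1.32), Chaf1b (1.00) and Rfc2 (0.83), and 6 lower (7.32%, 15.8% of all genes), led by Ccnd2 (-1.96), Tipin (-1.22) and E2f2 (-1.18). The Tipin call rests on 1 probe: its other kept probes gave -0.50 and 0.17, with no call (adjusted p = 0.0686 and 0.476). With saline 2 were higher after SCI (2.44%, 14.8% of all genes), Pold2 (0.89) and E2f3 (0.70), and 8 lower (9.76%, 15.9% of all genes), led by Rpa1 (-1.01), Rfc2 (-0.89) and Pold1 (-0.73). The interaction was called in 4 upward (4.88%, 14.0% of all genes), led by Pold1 (2.05), Rfc2 (1.72) and Rpa1 (0.96), and in 6 downward (7.32%, 11.8% of all genes), led by Ccnd2 (-2.22), Rpa3 (-1.52) and E2f2 (-1.33). The interactions of Ccnd2, cyclin D2, and of Ccnd1 had opposite signs. The mean ± SD of Ccnd2 was 4.92 ± 0.18 for SCI+CDTX (n = 3), 6.89 ± 0.44 for Sham+CDTX, 6.22 ± 0.57 for SCI+Saline and 5.97 ± 0.44 for Sham+Saline (n = 4 for these groups). Ccnd2 fell with cardiotoxin in SCI mice (adjusted p = 0.00122) and rose by 0.92 in sham mice (adjusted p = 0.00735), with an interaction of -2.22 (adjusted p = 0.000461).

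Of 20 inhibitors of the cell cycle 16 were kept. With cardiotoxin 3 were higher (18.8%) and 7 lower (43.8%) in SCI mice, where 22.1% and 22.3% of all genes were. In sham mice 7 were higher (43.8%) and 4 lower (25.0%), where 23.9% and 26.8% of all genes were. The higher share in SCI mice and the lower share in sham mice are thus near those of all genes. Btg1 rose after both surgeries (1.35 and 1.12), as did the retinoblastoma relative Rbl1 (0.72 and 1.17), and Gadd45b rose by 0.74 in SCI mice and was -0.77 in sham mice. Tob1 (-1.19), Tob2 (-1.08) and Gadd45a (-0.80) were lowest in SCI mice and Cdkn1c (-1.39) and Cdkn2b (-0.83) in sham mice. In saline-injected muscle 4 inhibitors were higher after SCI (25.0%, 14.8% of all genes) and 5 lower (31.2%, 15.9% of all genes). Gadd45a, a damage response gene, rose by 2.66 (SE 0.20, adjusted p = 1.45e-08), Cdkn1a, the kinase inhibitor p21, by 2.15 (SE 0.13, adjusted p = 1.59e-09) and Rb1 by 1.15, whereas Cdkn1c fell by 1.71 (adjusted p = 5.15e-05), Gadd45b by 1.36 and Ccng1 by 1.10. Cdkn1a had a mean ± SD of 10.12 ± 0.09 for SCI+CDTX (n = 3), 9.54 ± 0.22 for Sham+CDTX, 10.53 ± 0.16 for SCI+Saline and 8.38 ± 0.05 for Sham+Saline (n = 4 for these groups). Its 3 kept probes gave 2.03 to 2.36 for SCI with saline. With cardiotoxin Cdkn1a rose by 1.16 in sham mice and fell by 0.42 in SCI mice (adjusted p = 0.0252), an interaction of -1.57, and its other probes also fell in SCI mice (-0.54 and -0.57). Between SCI+CDTX and Sham+CDTX 4 inhibitors were higher (25.0%, 16.6% of all genes), led by Gadd45a (1.91), Cdkn1a (0.57) and Btg1 (0.55). Each of these calls rests on 1 probe: the other kept probes gave 0.46 for Gadd45a, 0.25 and 0.14 for Cdkn1a and -0.01 for Btg1, with no call (adjusted p = 0.150 to 0.975). In the same contrast 4 were lower (25.0%, 15.8% of all genes), led by Tob1 (-1.82), Tob2 (-1.65) and Ccng1 (-1.24). The interaction was called in 3 upward (18.8%, 14.0% of all genes), Gadd45b (1.51), Cdkn1c (1.29) and Cdkn2b (0.95), and in 4 downward (25.0%, 11.8% of all genes), led by Tob2 (-1.68), Trp53 (-1.63) and Cdkn1a.

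The authors' deposited table of differences sets SCI+CDTX against each of the other groups, and its values against SCI+Saline and Sham+CDTX are used here. It lists 38 of the 44 genes as higher and 0 as lower in the first of these at the p under 0.05 of the authors' deposited table, where 27.8% and 6.84% of all genes were. In the second, the authors' deposited table lists 8 as higher and 2 as lower (16.4% and 14.8% of all genes). The 8 are Cdt1, Kif22, Pcna and Tpx2, also called here, and Mcm5, Mcm10, Lig1 and Cdc20, not called here. Plk1, called higher here, is not among them. The 2 are Rrm1, also called here, and Fen1, not called here. Whether the p-values of the deposited table were corrected for many tests is not given in the sources used here.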

How the data were processed

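RNA of 16 muscle samples was hybridized as labelled cRNA to Illumina arrays. The authors deposited probe intensities that are not normalized and a detection p-value per probe and array, exported with GenomeStudio 2011.1 per the submitters' processing notes and GSGX 1.9.0 per the file headers. The deposited table of the authors' own differences gives a p-value per probe. Each gene was read there by the same probe as here, and the table was used only to count and name the genes it lists. The aligner of probes to genes and the build are not given in the sources used here.

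From the deposited intensities, background was corrected with limma 3.58.1 (R 4.3.3) from the detection p-values with an offset of 16, arrays were quantile normalized, and log2 values were taken. The log2 values were computed here from the deposited intensities. The 15 arrays of the authors' final analysis entered 1 fit of 4 group means with 5 contrasts (lmFit, eBayes), with p-values adjusted by Benjamini-Hochberg over all kept probes of a contrast. Each gene is given by its kept probe with the highest mean. Where every array of a group left a probe undetected, the fold is a lower bound, taken against the higher of its own signal and the lowest detected signal of each array. The fit was tested on simulated data with known changes.

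The members, roles, marker lists and gene lists were chosen with earlier results of these data known. Named by rule were, in each contrast, the 5 highest and 5 lowest called members and, with every array, the leading member of each role; also members with no kept probe or with probes that disagree, the 3 highest and 3 lowest called genes of the other lists, and the 5 genes most like Mcm5, 1 of which is not reported here. The same step for Mki67 could not be run. Most same-numbered arrays did not deviate together: 3 of 21 correlations were over 0.1, from -0.275 to 0.378, the highest between the saline arrays numbered 4. Numbers were therefore not used as pairs. The number of arrays limits the precision of every value. Promoter sequences are from RefSeq.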

Additional observations from a re-analysis of the deposited data

Results flagged for a closer look

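Among 27 groups of 4 arrays of the leading members, 2 held an array far from the rest, and chance alone flags about 1 group in 20. Uhrf1 was at 7.82 on Sham+Saline array 4, against 5.88 on the next highest array of the group. Tyms was at 7.18 on Sham+CDTX array 2, against 7.72 on the next lowest. By limma's interaction test, adjusted over 14763 kept probes, the cardiotoxin response was called as different between SCI and sham mice for Ccnd1 (0.99, larger in SCI mice), Pcna (-0.82) and Rrm2 (-0.84, both smaller in SCI mice). The third Ccnd1 probe (-0.05) and the second Rrm2 probe (-0.34) gave no call, and the Pcna call held in 13 of 26 alternatives.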

How the results depend on the processing

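With cardiotoxin, 36 to 39 genes were higher in SCI mice and 29 to 41 in sham mice under the alternatives that kept all 15 or 16 arrays or left out both saline arrays numbered 4, and 0 were lower. The count of 29 came with the score of probe differences as a covariate, where 22.9% of all genes were called in sham mice. Leaving out 1 array at a time gave 35 to 38 and 38 to 40 higher and 0 lower. For SCI+CDTX against Sham+CDTX, leaving out 1 array gave 2 to 5 higher and 1 to 2 lower, for SCI+Saline against Sham+Saline 3 to 7 and 2 to 7, and for the interaction 0 to 5 and 0 to 3. For SCI+CDTX against Sham+CDTX, the higher count, 5 as reported, was 1 with all 16 arrays, 10 with each slide normalized separately, 0 with the score of probe differences as a covariate, 9 without the saline arrays numbered 4 and 8 by the authors' deposited p. The lower count, 1 as reported, was 2 without background correction, 0 with slides normalized separately, 0 with the score and 3 without the saline arrays numbered 4. Of all genes, 19.1% were called in this contrast with all 16 arrays. The share was 34.5% with slides normalized separately and 35.1% without the saline arrays numbered 4. For SCI+Saline against Sham+Saline the higher count, 6 as reported, was 3 without background correction and 3 with the mean of a gene's probes. For the interaction the higher count, 1 as reported, was 0 with all 16 arrays, with median scaling, without a detection filter, with the score and with the mean of probes, and 3 without background correction or without the saline arrays numbered 4. At an unadjusted limma p under 0.05, between 0 and 3 genes were higher in the settings with 0 calls. With median scaling 32.2% of all genes were called in the interaction. The lower count, 2 as reported, was 1 with all 16 arrays, without a filter, with the score and with the mean of probes, 5 with median scaling and 0 without background correction (3 at an unadjusted p under 0.05). With the replicate number as a block it was 1, and the block changed no other of these counts by over 1.5 times. With the score, under which 2.09% of all genes were called between SCI+CDTX and Sham+CDTX, the sign turned for Cdt1 (-0.18), Plk1 (-1.19) and Kif22 (-0.57) in that contrast and for Ccnd1 (-0.99) in the interaction. The cause was not tested.

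Of 702 recomputed values of single genes, 625 kept their direction and call, 73 lost the call and 4 reversed. Pcna stayed higher in SCI+Saline than in Sham+Saline in all 26 alternatives (0.67 to 1.83), and Uhrf1 stayed higher with cardiotoxin in SCI mice (2.64 to 4.44). Cdt1 kept its call for SCI with saline in 9 of 26, Rrm1 in 17 and the Pcna interaction in 13. For SCI+CDTX against Sham+CDTX the call held in 18 of 26 for Kif22, 19 for Plk1 and 23 for Tpx2. There it held in 24 for Cdt1 and Rrm1 and in 25 for Pcna. Without background correction the median cardiotoxin differences over the members were 0.84 and 0.79, against 1.72 and 1.68 as reported. With each slide normalized separately the median of all genes moved to 0.14 for SCI with cardiotoxin and 0.11 for SCI with saline. Saline values near the floor limit the fold changes of the dim members. With 3 or 4 arrays in a group, small differences may be missed.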
